A study of Mus musculus with 28 samples.

Results

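The genes described here encode the proteins of the cytosolic ribosome, chosen by symbol: protein-coding genes of the mouse mm10 genome whose symbols start with Rpl or Rps, together with Rpsa, without the Rps6k kinases and without symbols that carry the letter l after the number. The rule found 83 genes. Of these, 79 had at least 1 region of the deposited tables with its centre within 1 kb of the transcription start site (TSS), out of 14089 protein-coding genes with such a promoter region. The 79 promoters held 105 of 127646 regions.

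CUT&Tag, which uses an antibody to bring a transposase to marked chromatin, was run on mouse embryonic stem cells with an inducible FOXD3 knockout (genotype FOXD3-iKO). FOXD3 is a forkhead factor that binds DNA in pluripotent cells. The H3K27ac groups in asynchronous cells were EtOH, the solvent, and 4HT, 4-hydroxytamoxifen, which induces the depletion of FOXD3, with 2 samples each. The H2BK120ac groups are coded ED, ET, TD and TT in the labels, with 3 samples each, and their codes are not spelled out, and none of them is read here as FOXD3 depletion. All groups share the genotype, L2i medium and a treatment time of 24 h, per the labels. Another 12 samples, sorted by phase of the cell cycle, are not analysed here. Whether samples of a group came from separate cultures or clones is not stated.

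Each group has 1 deposited column with its replicates merged, so no spread between replicates, SD or p-value can be given. Differences are reported by size, with 95% counting intervals that cover counting error only. Values are coverage, in a scale the table names give as CPM, and a region without a number was counted as 0. The commonest value of a column, taken as the value of 1 fragment, was 0.165 for EtOH, 0.207 for 4HT, 0.445 for ED, 0.445 for ET, 0.412 for TD and 0.415 for TT, which implies depths of 6080000, 4820000, 2250000, 2250000, 2430000 and 2410000 fragments. The 7 of 8 pluripotency markers with a region had summed H3K27ac of 17.4 in EtOH and 22.8 in 4HT, against 0.473 and 0 for the 4 of 6 fibroblast markers with a region. In H2BK120ac the same sums were 5.14, 7.08, 14.6 and 14.4 for the pluripotency markers in ED, ET, TD and TT, and 0.349, 0.502, 0.889 and 0.207 for the fibroblast markers. The 2 of 4 primitive endoderm markers with a region summed to 0.341 in EtOH and 0.571 in 4HT, and to 1.22 in ED and 0.912 in ET, with 0.412 in TD and 0.53 in TT. In H2BK120ac the endoderm sums come from Gata6 alone, since Sox17 had no coverage there. They were lower in TD and TT than in ED and ET, opposite to the pluripotency sums. Not every pluripotency marker followed its sum. Nanog had 1.2 in ET and 0.211 in TT, and Zfp42 had 2.79 and 2.74. The other pluripotency markers with a region were higher in TT than in ET, and all were higher in TD than in ED. The counting intervals of the Gata6 ratios include 1, at 0.00587 to 3.84 for TD against ED and 0.00789 to 8.94 for TT against ET. The part of any other cell type in the results was not tested.

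Ribosomal proteins assemble with ribosomal RNA into a small subunit, which reads the messenger RNA, and a large subunit, which joins amino acids. Their genes are scattered over the genome and are among the most highly transcribed genes of dividing cells, stem cells included. Their messengers usually start within a run of pyrimidines, the terminal oligopyrimidine (TOP) motif, through which the mTOR pathway sets their translation. H3K27ac and H2BK120ac are acetylated lysines of histones H3 and H2B, both found at active promoters.

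Of the 79 genes with a promoter region, 42 encode large subunit proteins with numbered symbols, 3 the stalk proteins Rplp0, Rplp1 and Rplp2, and 31 small subunit proteins, Rpsa among them. The other three are members by symbol only. Rps19bp1 encodes a protein that is not part of the ribosome, and Rpl34-ps1 and Rps23rg1 are retrotransposed copies. The 4 genes without a promoter region were the copies Rpl31-ps12, Rpl37rt and Rps27rt, and Rpl17, whose annotated start is uncertain in the sources used here. The nearest region to Rpl17 had its centre 1229 bp away, with coverage of 0.165 in EtOH, 0.207 in 4HT, 0 in ED and 0.445 in ET, with 0.441 in TD and 0.799 in TT. The members nearest to the 1 kb limit on the inside were Rps21, with a region centred 922 bp upstream, and Rpl30 and Rpl22, each at 894 bp. The nearest regions left outside were at 1002 bp for Rpl7, 1022 bp for Rpl27a and 1053 bp for Rps26, all genes that have another region inside.

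The promoters are shown first as sequence, to make the pyrimidine runs and the ETS core visible. The following RefSeq sequences (GRCm38.p6) run from 100 bases before to 20 bases after the annotated start, 5′ to 3′ on the strand of the gene. Capitals mark the ETS core, CCGGAAG or its reverse complement, and every pyrimidine run of 8 bases or more. Rpl7a has the longest run found within 50 bases of the start, and Rpl15, Rps10, Rpl38 and Rps6 have one across the start. Rps21 has 2 ETS cores. Rpl19 is shown as the promoter with the highest mean H2BK120ac, which has no long run at its start.
Rpl7a (chr2:26910707-26910826, plus strand): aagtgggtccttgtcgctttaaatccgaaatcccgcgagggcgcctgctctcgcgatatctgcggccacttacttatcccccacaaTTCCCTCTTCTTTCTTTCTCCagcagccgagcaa
Rpl15 (chr14:18270967-18271086, minus strand): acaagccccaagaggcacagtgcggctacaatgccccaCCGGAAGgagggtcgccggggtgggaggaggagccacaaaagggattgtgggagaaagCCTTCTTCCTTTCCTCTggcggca
Rps10 (chr17:27635225-27635344, minus strand): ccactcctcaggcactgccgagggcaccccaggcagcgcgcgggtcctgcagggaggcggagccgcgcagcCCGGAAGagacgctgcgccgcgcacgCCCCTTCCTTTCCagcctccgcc
Rpl38 (chr11:114668480-114668599, plus strand): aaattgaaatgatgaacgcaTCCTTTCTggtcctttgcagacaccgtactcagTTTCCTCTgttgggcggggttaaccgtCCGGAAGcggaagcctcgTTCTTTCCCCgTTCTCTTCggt
Rps6 (chr4:86857348-86857467, minus strand): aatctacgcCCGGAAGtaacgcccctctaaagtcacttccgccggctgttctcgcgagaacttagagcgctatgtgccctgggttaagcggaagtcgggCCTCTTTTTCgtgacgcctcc
Rps21 (chr2:180257279-180257398, plus strand): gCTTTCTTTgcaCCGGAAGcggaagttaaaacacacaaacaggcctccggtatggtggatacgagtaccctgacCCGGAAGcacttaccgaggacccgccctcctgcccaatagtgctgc
Rpl19 (chr11:98026610-98026729, plus strand): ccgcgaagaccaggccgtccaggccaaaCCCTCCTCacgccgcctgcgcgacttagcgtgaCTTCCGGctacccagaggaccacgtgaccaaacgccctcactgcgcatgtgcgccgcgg

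RefSeq promoters, 250 bases before to 50 after the start, were at hand for 59 of the 79 genes and for 11431 genes in all. A pyrimidine run of at least 10 bases within 50 bases of the start was present in 40 of the 59 (67.8%), against 16.1% of all promoters. A run of at least 5 that crosses the start base itself was present in 19 (32.2%), against 9.35%. Rpl7a, a large subunit protein, had a run of 21 pyrimidines that begins 14 bases before the start. In the 40 promoters the first base of the run lay at a median position of 2.5 (quartiles -5.5 and 29.2), where position 1 is the start base. In Rpl4 the run of 15 begins at position 27. In Rps23 a run begins at position 36 and holds 15 bases up to the end of the sequence read, so its full length is not known. In both, the annotated start and the run do not coincide. Runs were read only within 50 bases of the start, so others at the edge of this window may also be longer.

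The ETS core, read on both strands like the following motifs, was present in 23 of the 59 (39%), against 17.3% of all promoters, and 4 members had at least 2 copies. Other letters were near the share of all promoters. The Sp/KLF box GGGCGG was in 59.3% against 65.8%, CCAAT in 32.2% against 38.8%, TATAAA in 8.47% against 6.98% and the E-box CACGTG in 8.47% against 10.2%. The YY1 core AAGATGGC was in 6.78% against 4.3%, and the NRF1 core GCATGCGC in 3.39% against 5.22%. Among the members, promoters with an ETS core had a median of 1.3 in 4HT, 1.32 in TD and 1.15 in TT, and those without one 0.827, 1.16 and 1.13. The EtOH medians went the other way, 0.833 with a core and 0.954 without. In ED they were 0.476 and 0.445, and in ET 0.445 and 0.445. With a pyrimidine run of at least 10 the medians in EtOH, 4HT, TD and TT were 0.997, 1.06, 1.32 and 1.15. Without one they were 0.762, 0.716, 1.1 and 1.1. The YY1 core (4 members), the TATA box (5), the E-box (5) and the NRF1 core (2) were in too few members to compare, with TD medians of 0.772, 0.699, 1.71 and 1.55, against 1.32, 1.31, 1.21 and 1.23 without each. None of these differences was tested. A match is a stretch of letters and does not show that a factor binds there.

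**Figure D1:**
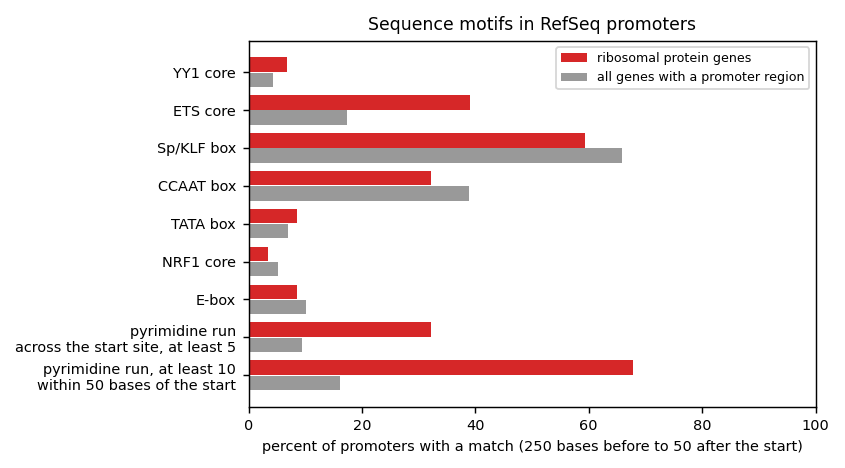
Percent of RefSeq promoters (horizontal axis) with each motif or pyrimidine run (vertical axis), for the 59 ribosomal protein promoters (red) and all 11431 promoters of genes with a region (grey). The red bars are longer than the grey for the ETS core and for both kinds of pyrimidine run, 67.8% against 16.1% for runs of at least 10.

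The regions at these starts were narrower than those of other promoters and lay more often upstream. The median width of the 105 regions was 445 bp (quartiles 236 and 709), against 642 bp (296 and 961) for all promoter regions. The centre lay at a median of -53.5 bp from the start, with negative values upstream, against 58.5 bp for all promoters, and 64.8% of the regions had their centre upstream, against 40.1%. A region covered the start site itself in 76 of the 79 genes (96.2%), against 88.6% of all genes with a promoter region. The 76 regions over a start had a median TD value of 1.35 and the 29 others 0.537, against 0.497 and 0.412 for all promoters. For the members the same medians were 0.452 and 0.231 in ED, and 0.445 and 0.445 in ET.

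**Figure D2:**
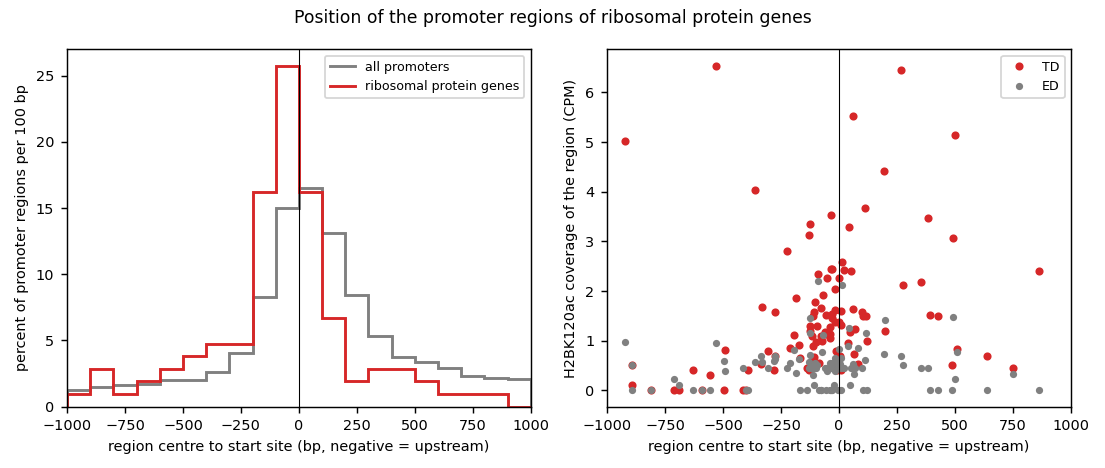
Left, percent of promoter regions per 100 bp (vertical axis) by the distance of the region's centre from the start (horizontal axis, bp), for ribosomal protein genes (red) and all promoters (grey). Right, H2BK120ac coverage of each of the 105 regions against the same distance, in TD (red) and ED (grey); the red points reach 6.54 and the grey stay at or below 2.21.

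Ribosomal protein promoters carried more H3K27ac than most promoters in both groups. In EtOH the coverage of the 79 ranged from 0.312 to 4.13 with a median of 0.993, against a median of 0.388 over all promoters, and in 4HT from 0 to 6.67 with a median of 1.11, against 0.44. The median member stood at percentile 82 of all promoters in EtOH and 78.8 in 4HT. In H2BK120ac the members stood high in TD and TT and not in ED and ET. The median was 0.445 in ED and 0.445 in ET, the value of 1 fragment and the same as the median of all promoters, at percentiles 47.5 and 50.3. It was 1.28 in TD, with a range of 0.412 to 6.11, and 1.15 in TT, with a range of 0 to 5.01, against 0.462 and 0.485 over all promoters, at percentiles 85.2 and 82.7. Above the third quartile of all promoters were 51 of the 79 members in EtOH, 44 in 4HT, 20 in ED and 19 in ET, with 55 in TD and 56 in TT.

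**Figure D3:**
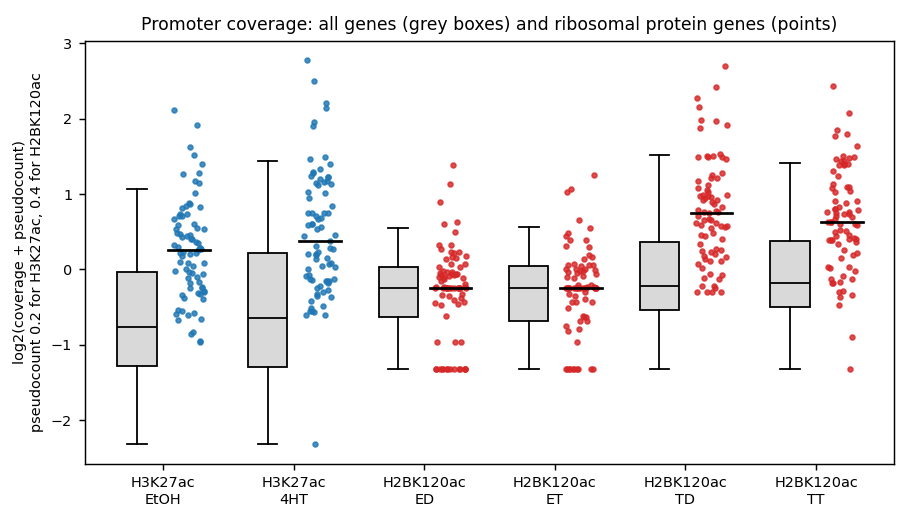
Promoter coverage on the log2(coverage + pseudocount) scale (vertical axis; pseudocount 0.2 for H3K27ac, 0.4 for H2BK120ac) in the 6 groups. Grey boxes give the quartiles of all 14089 promoters, with whiskers to outer percentiles. Points are the 79 ribosomal protein promoters and black lines their medians. The black lines lie above the boxes' medians in EtOH, 4HT, TD and TT and level with them in ED and ET.

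These levels rest on low pile-up in the H2BK120ac groups. Pile-up is a promoter's mean coverage divided by the value of 1 fragment. It is a depth and not a count of separate fragments, and the counting intervals treat it, rounded, as a count. The median member had 6.03 fragments of pile-up in EtOH, 5.33 in 4HT, 1 in ED and 1 in ET, with 3.11 in TD and 2.78 in TT. No coverage was found at 14 members in ED, 10 in ET, 1 in TT and none in TD, where 19.7%, 19.9%, 18.2% and 19.2% of all promoters had none. A promoter without coverage in one column could still hold up to 3 fragments' worth of signal at this depth.

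The 5 promoters with the highest mean H3K27ac were those of Rps23, Rpl19, Rpl21, Rpl4 and Rps27a. Rps23, a small subunit protein at the decoding centre, had 4.13 in EtOH and 6.67 in 4HT. Its H2BK120ac was 2.21 in ED and 1.63 in ET, with 2.35 in TD and 2.24 in TT, so that its 4 groups lay close together, unlike those of most members. Rps27a, made as a fusion with ubiquitin, had 2.68 in EtOH and 3.54 in 4HT, and 1.15, 1.17, 3.36 and 2.37 in ED, ET, TD and TT. Its region is shared with the start of Clhc1.

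Rpl19, a large subunit protein, had the highest mean H2BK120ac of the members. Its promoter had 3.58 in EtOH, 5.45 in 4HT, 0.501 in ED and 0.998 in ET, with 4.95 in TD and 5.01 in TT. TD and TT were high and ED and ET low, at 9.89 times for TD against ED (interval 1.64 to 474) and 5.02 times for TT against ET (1.24 to 51.4). The signal lay in 3 regions inside the gene's span, and the strongest was not the one over the start. The region chr11:98026587-98026727, which covers the start, had 2.27 in TD and 0.387 in ED. The region chr11:98026859-98027094, centred 266 bp downstream, had 6.46 in TD and 0.701 in ED.

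Rpl4, Rpl21 and Rpl7 were also among the 5 promoters of highest mean H2BK120ac. Rpl4, a large subunit protein near the exit tunnel, had 0.77 in ED and 0.605 in ET, with 6.11 in TD and 3.02 in TT, and 2.45 in EtOH and 4.23 in 4HT. Its regions also lie within 1 kb of the start of Zwilch, a kinetochore gene, and the coverage cannot be divided between them. Rpl21 had 0.729 in ED and 0.834 in ET, with 4.42 in TD and 3.22 in TT. In both genes, TD and TT were above both ED and ET. Rpl7 differed from them: 1.79 in ED and 1.97 in ET, with 1.93 in TD and 3.07 in TT, so that TD lay between ED and ET and TT alone was higher.

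**Figure D4:**
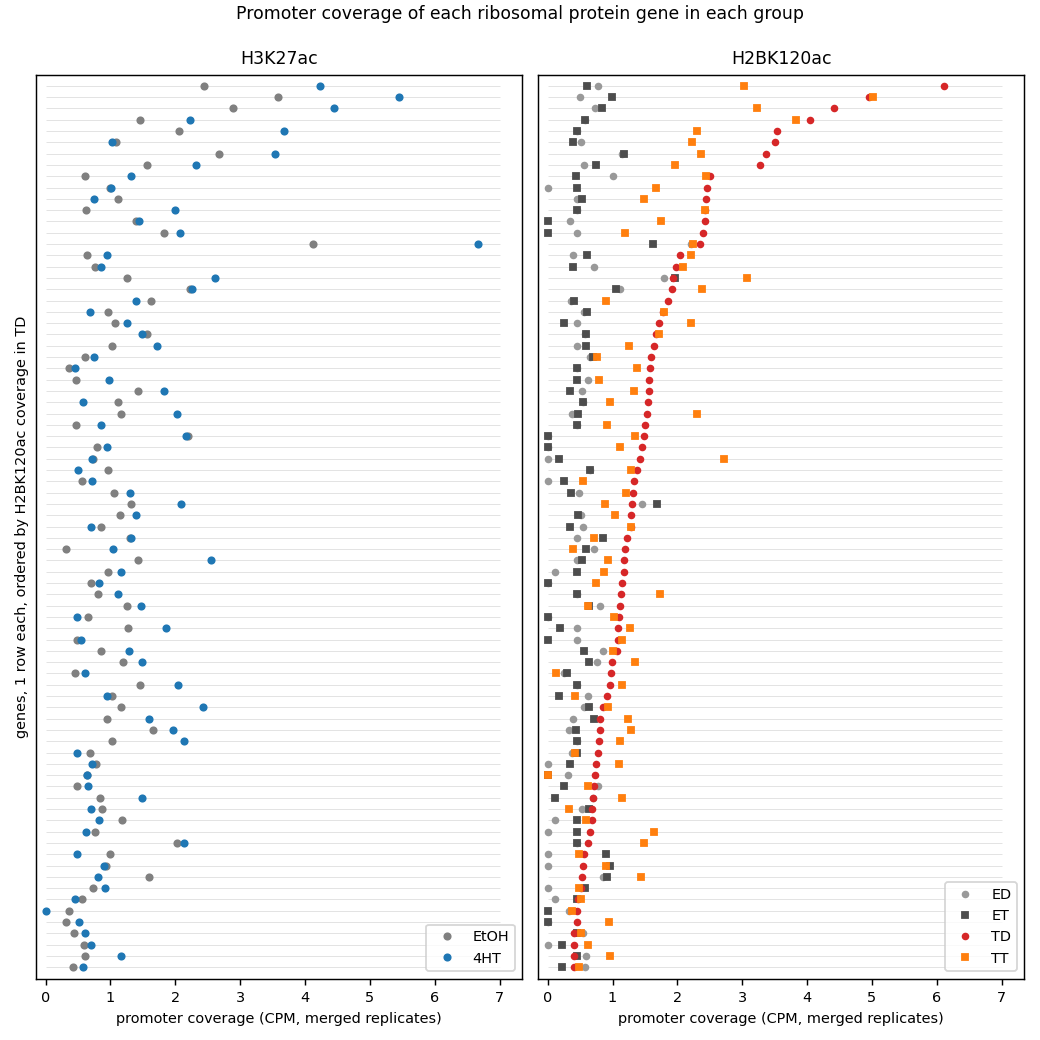
Coverage (horizontal axes, CPM, replicates merged) of the 79 promoters, 1 row per gene ordered by TD coverage (vertical axis), in H3K27ac (left; EtOH grey, 4HT blue) and H2BK120ac (right; ED light grey, ET dark grey, TD red, TT orange). In the H2BK120ac panel the red and orange points lie to the right of both greys in 61 of the 79 rows.

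The first H2BK120ac comparison sets TD against ED, and the second TT against ET, each changing the first letter of the code. Over the 79 promoters, both TD and TT were above both ED and ET in 61 (77.2%), where 31.6% of all promoters had this order. The reverse order was seen at 1 member, the copy Rps23rg1 (1.46 in ED and 1.69 in ET, with 1.3 in TD and 0.886 in TT), where 16% of all promoters had it. Summed over the 105 regions, coverage was 164 in TD and 49.5 in ED, a ratio of 3.32 (interval 2.69 to 4.14). Over all promoter regions the ratio was 1.68 (1.65 to 1.72). For TT against ET the sums were 149 and 49.3, a ratio of 3.02 (2.43 to 3.77), against 1.61 (1.58 to 1.64) over all promoter regions. In both comparisons the members' interval lies above that of all promoters without overlap, counting error only. At a mean pile-up of at least 5 fragments, the members did not stand apart. The median log2 difference was 2.19 over 5 members for TD against ED, against 2.14 over all such promoters. For TT against ET it was 1.77, against 1.95. That cut uses these same H2BK120ac values, and members were not otherwise compared with promoters of like coverage. Coverage was also spread differently between the columns: 38.7% of all regions had none in ED and 38.7% in ET, against 48.2% in TD and 47.5% in TT, and the part of this in the result was not tested.

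Counts of single promoters used a size rule, at least 2-fold on the log2(coverage + pseudocount) scale, on which 1 fragment against none already passes for H2BK120ac. Over all 79 promoters with no filter, 42 (53.2%) were at least 2-fold higher in TD than in ED and 0 lower, where the background over all promoters was 20.4% higher and 9.7% lower. The median log2 difference was 1.05, against 0.08 over all promoters. For TT against ET, 37 of 79 (46.8%) were higher and 0 lower, against 20.2% and 8.75%, with medians of 0.88 and 0.12. TD was above ED in 73 of the 79 and TT above ET in 68. Shares over all promoters are given only for those that reached the pseudocount on average over the 4 groups. Among these, TD was above ED in 91.8% of members and 65.6% of all promoters. TT was above ET in 87.7% and 66.7%.

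Promoters that reached the pseudocount on average over the 4 groups numbered 73, and 21 of them reached it in TD or TT while falling below it in the group compared, so these counts describe and do not add support. Among the 73, 39 were higher and 0 lower in TD against ED (background 23.5% and 3.69%), and 36 higher and 0 lower in TT against ET (22.4% and 3.41%). In both comparisons at once 28 of the 73 were at least 2-fold higher, where 12.3% of all such promoters were. The 6 members below the filter were Rpl8, Rpl10a, Rpl29, Rplp0, Rps4x and Rpl34-ps1. With the 14 members that had no ED coverage set at the limit of 3 fragments, the median for TD against ED was 0.75 with 28 members at least 2-fold higher, and with the 10 that had no ET coverage set likewise, the median for TT against ET was 0.69 with 29.

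Few single promoters stood clear of counting error. The interval of the TD to ED ratio lay above 1 at 6 of the 65 members with ED coverage, among them Rpl4, Rpl19, Rpl21 and Rpl34, against 2.12% of all promoters with one. That of TT to ET lay above 1 at 3 of 69, among them Rpl19 and Rpl24, against 1.79%. Rpl4 had a ratio of 7.93 (1.61 to 62.5) for TD against ED, and Rpl34 of 6.74 (1.15 to 365). No coverage in either ED or ET was found at 5 members, Rpl8, Rpl13, Rpl41, Rps9 and Rps16. Rpl13 had 1.49 in TD and 1.34 in TT with H3K27ac of 2.2 in EtOH and 2.17 in 4HT, and Rpl41 had 1.45 in TD and 1.12 in TT. No fold is given for these, since their TD pile-ups, at most 3.63 fragments, are near the limit of 3.

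**Figure D5:**
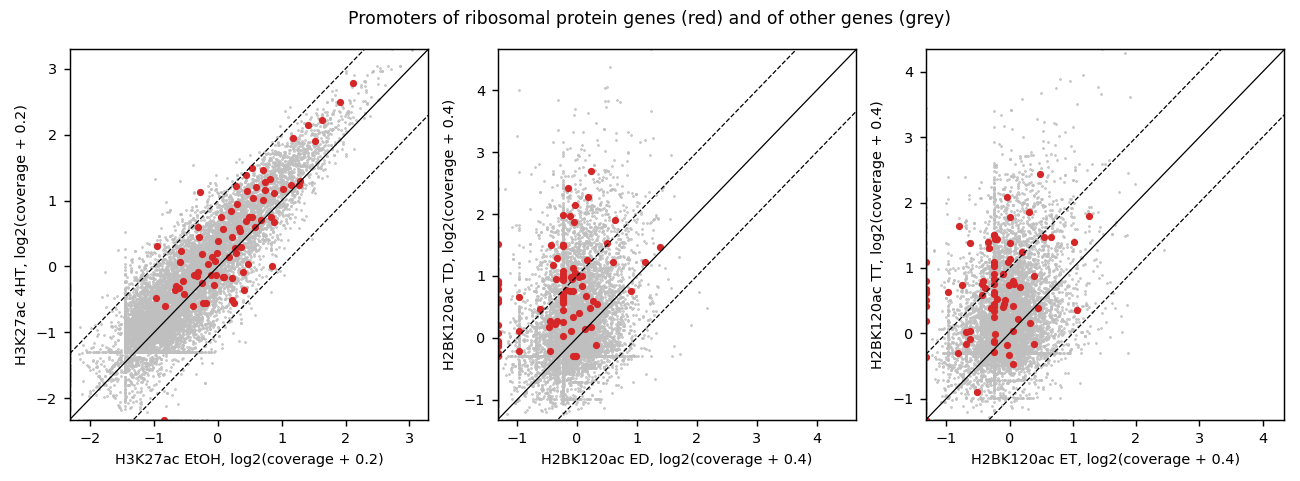
Promoter coverage on the log2(coverage + pseudocount) scale in 4HT against EtOH (H3K27ac), TD against ED and TT against ET (H2BK120ac), for ribosomal protein genes (red) and other genes (grey); solid lines mark equal values and dashed lines the 2-fold rule. The red points straddle the solid line in H3K27ac, and in TD against ED 73 of 79 lie above it. Among promoters that reach the pseudocount on average, 91.8% of members and 65.6% of all lie above it in TD against ED.

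The difference was seen in both subunits, where all promoter regions had ratios of 1.68 for TD against ED and 1.61 for TT against ET. Members by symbol only that passed the filter did not show it in this size. Rps23rg1 had log2 differences of -0.13 and -0.70, and Rps19bp1 of -0.23 and 0.12, in the same order. Over the regions of large subunit genes, the stalk left out, the TD to ED ratio was 3.76 (2.84 to 5.08) and the TT to ET ratio 3.34 (2.51 to 4.43). Over those of small subunit genes the ratios were 2.99 (2.12 to 4.37) and 2.78 (1.89 to 4.06), intervals that overlap those of the large subunit. Without the 17 regions shared with the start of another gene, the ratios over the remaining 88 regions were 3.29 (2.6 to 4.22) and 3.01 (2.38 to 3.87). Without the 5 promoters of highest H2BK120ac they were 3.02 (2.39 to 3.85) and 2.88 (2.27 to 3.7), so the 5 do not carry the sum alone.

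The stalk proteins form the flexible arm of the large subunit that recruits translation factors. Rplp2 had 0.354 in ED and 0.413 in ET, with 1.86 in TD and 0.907 in TT. Rplp1 had 0.624, 0.17, 0.92 and 0.415, and Rplp0 had 0, 0.223, 0.412 and 0.616. Rplp2 was the highest of these in TD and TT, at pile-ups of 4.53 and 2.19 fragments. The others had pile-ups of at most 2.24 fragments. Rpsa, a small subunit protein also known as the laminin receptor, had 0.712, 0.596, 1.19 and 0.393, with TT the lowest.

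The products of Rpl5, Rpl11, Rpl23, Rps7, Rps27 and Rps27a bind MDM2, the ligase that holds p53 low, when ribosome assembly is disturbed. Among them 3 of 6 were at least 2-fold higher in TD than in ED and 3 of 6 in TT than in ET, against 23.5% and 22.4% of all promoters; 6 genes are too few to set these shares apart. Rpl5 had 0.383 in ED and 0.471 in ET, with 1.53 in TD and 2.31 in TT. Rpl23 had 0.445, 0.245, 1.71 and 2.21. Both showed TD and TT above ED and ET, and so did Rps7, with 0.476, 0.365, 1.32 and 1.21. Rpl11 had 0.445, 0.846, 1.23 and 0.709, with TT below ET, and Rps27 had 0.534, 0.636, 0.683 and 0.324, so the order differed within the group.

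The 4 X-linked members had TD values between 0.699 and 0.802, below the members' median of 1.28. Rpl10 had 0.394 in ED and 0.719 in ET, with 0.802 in TD and 1.24 in TT. Rpl36a had 0.37, 0.445, 0.773 and 0.421, and Rpl39 had 0.699, 0.111, 0.699 and 1.15. Rps4x had 0.319, 0, 0.728 and 0. Among the 3 that passed the filter, 0 were at least 2-fold higher in TD against ED and 1, Rpl39, in TT against ET, where 23.5% and 22.4% of all promoters were, and 3 genes are too few to set apart from these shares.

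Related genes outside the symbol rule gave mixed values. Fau, whose product carries the small subunit protein eS30, had 0.473 in EtOH, 1.54 in 4HT, 0.445 in ED and 0.445 in ET, with 1.53 in TD and 0.374 in TT. Rps27l, a paralog of Rps27 and a known p53 target, had 2.3 in EtOH, 2.92 in 4HT, 0.552 in ED and 1.26 in ET, 9.67 in TD and 8.82 in TT, with a TD to ED ratio of 17.5 (3.45 to 876). Rps27 itself reached only 0.683 in TD.

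Genes that build the ribosome were also read. Of 36 ribosome biogenesis genes, 31 passed the H2BK120ac filter, with 13 at least 2-fold higher in TD against ED (median 0.53) and 14 in TT against ET (median 0.92), and 0 lower in both. Over all promoters 23.5% and 22.4% were higher, with medians of 0.30 and 0.31. Ncl, which encodes nucleolin, had 0.445 in ED and 0.657 in ET, with 2.26 in TD and 2.41 in TT. Fbl, which encodes the rRNA methylase fibrillarin, had 0.612, 0.53, 0.412 and 0.869. Among RNA polymerase I genes, 4 of 9 were higher in TD against ED and 1 of 9 in TT against ET, and among chaperones and importers of ribosomal proteins 4 of 10 and 0 of 10. The counts for TD against ED, 4 of 9 and 4 of 10, lie above the 23.5% of all promoters. Those for TT against ET, 1 of 9 and 0 of 10, lie below the 22.4%. Sets of 9 and 10 genes are too few to set these shares apart. The members' counts in the same comparisons were 39 and 36 of 73.

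The comparisons that change only the second letter of the code gave counts near the background. For ET against ED, 4 of 73 promoters were at least 2-fold higher and 3 lower, against 5.76% and 5.4% of all promoters, with a median log2 difference of 0.00. Named after their values were seen, those higher were Rpl12, Rpl28, Rps2 and Rps15, each without coverage in ED, and those lower included Rpl39 and Rps12, at 0.111 or 0 in ET. The ratio over the 105 regions was 0.998 (0.762 to 1.31). For TT against TD, 0 were higher and 2 lower, against 3.98% and 4.12%, with a median of -0.09 and a ratio of 0.908 (0.786 to 1.05). Those 2, Rpl6 (0.973 in TD, 0.135 in TT) and Rpsa, were also named after their values were seen.

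Among the 5 promoters with a mean pile-up of at least 5 fragments in H2BK120ac, Rpl4 had the largest TT to TD difference, with a ratio of 0.494 (0.162 to 1.23), and Rpl7 was higher in TT, with a ratio of 1.59 (0.385 to 5.64). Neither interval excludes 1. For ET against ED, Rpl19 had a log2 difference of 0.63, Rpl21 of 0.13, Rpl7 of 0.12 and Rpl4 of -0.22, all within counting error.

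FOXD3 depletion was compared with solvent in H3K27ac. Of the 78 promoters that passed the filter, 2 were at least 2-fold higher in 4HT and 0 lower, against 2.82% and 0.886% of all promoters. The higher ones were Rpl31 and Rpsa. The median log2 difference was 0.24, against 0.19 over all promoters, and 56 of the 78 (71.8%) were above 0, against 66.6%. Summed over the 105 regions, coverage was 150 in 4HT and 114 in EtOH, a ratio of 1.32 (1.19 to 1.47), against 1.21 (1.2 to 1.22) over all promoter regions. These intervals overlap.

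Rpl31, a large subunit protein by the exit tunnel, had the largest difference among well covered members, those with a mean pile-up of at least 5 fragments: 0.623 in EtOH and 1.99 in 4HT, a ratio of 3.2 (0.908 to 13.8). Rpl7 had 1.25 and 2.61, Rpl13a 1.16 and 2.43, and Rps19, a gene mutated in Diamond-Blackfan anaemia, 1.02 and 2.14. Rpsa had 0.317 and 1.04. In each of these the interval of the ratio includes 1. In the other direction, Rpl27 had 1.6 in EtOH and 0.801 in 4HT, a ratio of 0.5 (0.115 to 1.75). Rpl18 had 1.12 and 0.748, Rps15a 1.18 and 0.828, and Rplp2 1.63 and 1.4. No member had a 4HT to EtOH interval that excluded 1, and of all promoters 0.173% had one above 1 and 0 one below.

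Over the 79 promoters the Spearman correlation was 0.77 between EtOH and 4HT, 0.71 between TD and TT and 0.48 between ED and ET. It was 0.45 between EtOH and TD, 0.31 between ED and TD and 0.27 between EtOH and ED. Over all 14089 promoters the same values were 0.86, 0.71, 0.41, 0.63, 0.38 and 0.45. These describe genes within merged columns, which are not replicates, and all columns share the same regions.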

How the data were processed

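CUT&Tag coverage of H3K27ac (2 groups of 2 samples) and H2BK120ac (4 groups of 3) was read at the promoters of ribosomal protein genes. The deposited values are coverage signal, in CPM by the names of the tables, in 127646 regions of the mm10 build named in the submitters' processing notes. The authors merged the replicates, so each group has 1 column. The notes also name featureCounts and DESeq2 for the H3K27ac samples, without a role; the sources used here give no aligner. Regions without coverage hold no number, and region means appear to skip uncovered bases, which raises values where coverage is sparse. Columns named for IgG, 16 in all with 8 per table in 2 tables, belong to no listed sample and stayed out. A deposited table of 5 kb windows around start sites was used for positions only.

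Start sites came from RefSeq promoters (GRCm38.p6), or, for 21 of the 83 members, from the end of the gene span nearest a deposited window, a rule that gets the strand right for 94.2% of genes in the promoter table. A promoter's value is the width-weighted mean of its regions centred within 1 kb. Differences are on log2(value + pseudocount), with a pseudocount of 0.2 (H3K27ac) or 0.4 (H2BK120ac), the 25th percentile of positive values to 1 significant digit; this understates changes at low values. Promoters with a mean over the groups of at least the pseudocount were kept, and a call is at least 2-fold. limma was planned only for separate replicates and could not be run. Counting intervals (95%) use the exact Clopper-Pearson method on the pile-up of the columns compared. They treat the rounded pile-up as a count, although it is a depth. The text names the 5 members of highest mean coverage per mark, the 4 largest differences per direction among members with a mean pile-up of at least 5 fragments, members without coverage, MDM2-binding, stalk and X-linked members, Rpsa, Fau and Rps27l, except items not reported here; the sequences printed, and the other genes given as examples, were chosen with their values known. Members and lists were chosen with earlier results of these data known. Simulated pile-ups with known changes were also put through the 2-fold rule, and their outcome is not used here. They were drawn as plain counts without skipped bases, so they do not show how the rule performs in the sparse H2BK120ac columns. Python 3.11.15, pandas 2.3.3, numpy 2.4.6, SciPy 1.17.1 and matplotlib 3.10.9 were used. Each result was recomputed under 9 other settings, and under 3 more chosen after seeing the data.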

Additional observations from a re-analysis of the deposited data

How the results depend on the processing

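No paired analysis was possible because the replicates are merged into 1 column per group, and for the same reason no replicate could be left out. H2BK120ac rests on low pile-up: 0 members reached a pile-up of 5 fragments in ED or ET. A single fragment against none passes the 2-fold rule. Over 9 other settings 102 values stayed near the main ones and 33 moved, and over the 3 added after seeing the data 42 stayed and 3 moved. A reversal could be recorded only for a median of at least 2-fold. Only TD against ED had such a median (log2 difference 1.07), and it stayed positive, so the lack of reversals says nothing about the other results.

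For TD against ED, the 39 higher became 23 with double the pseudocount (median 0.75) and 25 with median centring, while the share of all promoters fell from 23.5% to 14% and 15%. They became 4 of 5 members with a mean pile-up of at least 5 fragments (median 2.19, against 2.14 over all such promoters). At that pile-up 89.6% of all promoters were higher, so the 4 of 5 do not stand apart. For TT against ET, the 36 became 22 with double the pseudocount and 23 with median centring, which also gave 1 lower, while the share of all promoters fell from 22.4% to 13% and 13.7%. They became 4 of 5 at that pile-up (median 1.77, against 1.95 over all such promoters), where 87.4% of all promoters were higher. For H3K27ac, the 2 higher became 5 with a halved pseudocount and 1 at a mean pile-up of 5, and the 0 lower became 1 with no filter, 2 with median centring and 1 with quantile normalization. The median fell from 0.24 to 0.05 with median centring and to 0.01 with quantile normalization. For ET against ED, the 4 higher and 3 lower became 8 and 6 with a halved pseudocount, 2 and 0 with double, 0 and 0 at a mean pile-up of 5, and 0 and 1 with uncovered regions left out. They became 0 and 0 when calls needed 3 fragments, and the lower became 5 with the nearest region. For TT against TD, a halved pseudocount gave 3 higher. The 2 lower became 0 with double the pseudocount, at a mean pile-up of 5 and when calls needed 3 fragments, and 1 with centres within 500 bp, the nearest region, quantile normalization or uncovered regions left out. The cause was not tested where fewer promoters or a changed pseudocount do not show it.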
